A study of Mus musculus with 17 samples.

Results

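The question addressed here was how far kidney macrophages of lupus mice whose nephritis had gone into remission after treatment differed from those of mice in which nephritis had not yet begun. The comparison took 4 remission arrays and 6 prenephritic arrays, 10 of the 17 arrays of the series, as named in the sample titles. All cells were F4/80hi cells sorted by flow cytometry from kidneys of NZB/W mice, a hybrid strain that develops lupus nephritis spontaneously. Prenephritic mice were 8 to 16 weeks old. Remission mice were sampled 3 to 4 weeks after complete remission had been reached, and they had been given cyclophosphamide, a cytotoxic drug (1 dose), CTLA4Ig, a fusion protein that blocks CD28 costimulation (6 doses), and an antibody to CD154, the T cell ligand of CD40. The remaining 7 arrays, from nephritic mice 2 to 6 weeks after proteinuria had begun and before terminal renal failure, entered the model to estimate the spread, and their levels are given where they help to place a value. The labels give no age for remission mice, and all of them had been nephritic and treated, so age, earlier disease and treatment cannot be told apart. Nothing in the labels says that arrays of a group came from separate mice, so a p-value here reflects the spread among arrays, part of which may be technical.

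F4/80hi cells are the resident macrophages of the kidney, which lie between the tubules and around the capillaries, take up debris and immune complexes, and present antigen. In lupus nephritis, immune complexes deposited in the kidney engage Fc receptors and complement, and macrophages there take on a mixed programme of inflammatory, phagocytic and matrix-remodelling genes. CTLA4Ig and antibodies to CD154 act on the contact between T cells and antigen-presenting cells, and cyclophosphamide kills dividing cells.

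The sorted cells had the defining markers in both groups. The gene of the antigen used for the sort, Adgre1, had a level of 13.08 ± 0.18 (SD, n = 6) in prenephritic and 13.23 ± 0.14 (SD, n = 4) in remission arrays on the log2 scale, with a difference of 0.15 ± 0.09 (standard error, as after every difference given). For Csf1r, Cd68, Mrc1, Cx3cr1, Ptprc, C1qa and Fcgr1 the differences lay between −0.09 and 0.12. Transcripts of kidney tubule cells were also present and were higher on average in remission arrays. The tubule score, the mean of 48 tubule genes centred on all arrays, was −0.15 ± 0.59 (SD, n = 6) in prenephritic and 0.71 ± 0.60 (SD, n = 4) in remission arrays. The groups overlapped, since prenephritic replicate 6 had a score of 0.72 and remission replicate 4 one of −0.07. In sorted cells of this kind, more tubule cells and more tubule RNA in each sample cannot be told apart. The 3′ minus 5′ signal of the Gapdh control, a measure of RNA integrity, ran from 0.918 to 1.34 in prenephritic and from 0.889 to 1.17 in remission arrays.

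Of 15780 genes, 1 passed the test of remission against prenephritic arrays, which is 0.00634% (limma, Benjamini-Hochberg adjusted p below 0.05). It was Parvg, and it was lower in remission. No gene was higher by that test, while 1007 genes were higher and 1939 lower at an unadjusted p below 0.05, or 6.38% and 12.3% of those tested. At an adjusted p below 0.10 there were 2 higher and 12 lower genes. The same fit called 1904 genes between nephritic and prenephritic arrays (12.1%) and 2100 between remission and nephritic arrays (13.3%). These comparisons share arrays and differ in the number of arrays, and the median standard error was 0.115 for remission minus prenephritic against 0.0991 and 0.112 in the other comparisons. A gene with a standard error of 0.115 had a 95% interval of 0.243 on either side of its difference, so smaller differences could not be resolved. That interval is not adjusted for the number of genes, and such a gene needed a larger difference to pass the adjusted test.

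Differences were small for most genes and leaned downward. The median difference was −0.05, with quartiles of −0.17 and 0.06, and 63.4% of genes were below 0 against 36.6% above. The tail was longer on the other side, where 349 genes had a difference of at least 1 and 44 had one of −1 or less. With the tubule score as a covariate these counts were 17 and 47. All 4 remission arrays lay above all 6 prenephritic arrays for 62 genes (0.393%) and below them for 304 (1.93%).

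The count of called genes rested on single arrays. Without prenephritic replicate 6, which had the highest tubule score of its group, 28 genes were higher and 171 lower. Without remission replicate 4, which had the lowest score of its group, 1 was higher and 16 were lower. Leaving out any 1 of the other 8 arrays compared gave 0 higher and 0 to 2 lower genes. With the tubule score as a covariate 0 genes passed, and 330 higher and 732 lower genes had an unadjusted p below 0.05 in limma.

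**Figure D1:**
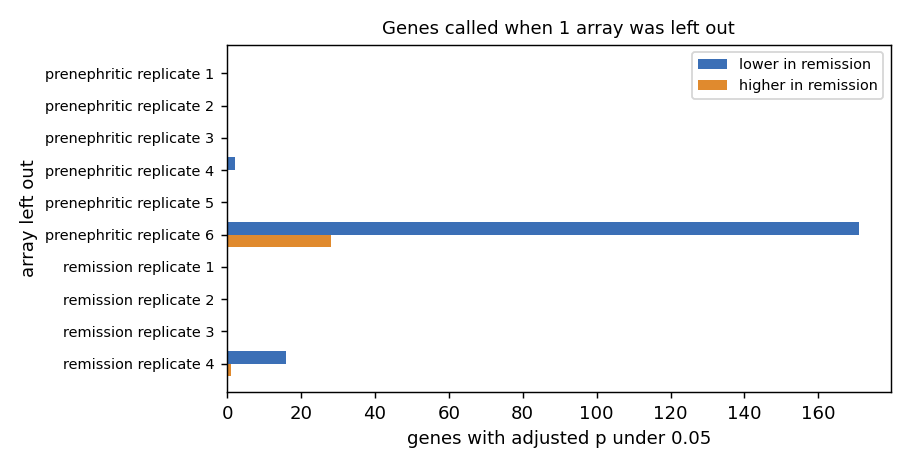
Number of genes with adjusted p below 0.05 in remission minus prenephritic when the array named on the vertical axis was left out, lower genes in blue and higher genes in orange. Without prenephritic replicate 6 the counts were 171 lower and 28 higher, and without remission replicate 4 they were 16 and 1.

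Parvg encodes gamma-parvin, an actin-binding adaptor of blood cells that joins integrin-linked kinase to the cytoskeleton at sites of adhesion. Its level ran from 8.45 to 9.21 in the 6 prenephritic arrays, with a median of 9.002. Remission replicates 1 to 4 were at 7.90, 7.93, 7.26 and 7.99, all below the lowest prenephritic array, and replicate 3 stood apart from the other remission arrays. The difference of −1.15 ± 0.16 (95% interval −1.50 to −0.80, adjusted p = 0.041) is a 2.22-fold lower level. Nephritic arrays ran from 7.12 to 7.72, and their difference from prenephritic arrays was −1.43 ± 0.14 (adjusted p = 1.3e-05). Remission and nephritic arrays differed by 0.28 (adjusted p = 0.26).

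The size of the Parvg difference varied less than its adjusted p. Over 26 other settings it lay between −1.27 and −0.98, and it passed in 11 of them. With only the 10 arrays compared in the fit the adjusted p was 0.15, and with the tubule score as a covariate the difference was −0.985 with an adjusted p of 0.18. Leaving out 1 array ended the call for prenephritic replicates 1, 2, 3 and 5 and remission replicates 1, 2 and 3, with adjusted p from 0.052 to 0.17, and for nephritic replicates 1, 2, 4, 6 and 7, with adjusted p from 0.054 to 0.075.

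The 250 bases before the RefSeq start of Parvg are shown because it was the gene that passed. The window is the first of 2 listed for Parvg, at chr15:84324470-84324719 on the plus strand of GRCm38.p6. Capitals mark GAGGAA, the core with flanking bases of sites bound by ETS factors such as PU.1, at 30 to 25 bases before the start. This motif was searched on both strands and stands in 23.3% of 32851 promoter windows of that length, so its presence is a description and shows no binding.
Parvg: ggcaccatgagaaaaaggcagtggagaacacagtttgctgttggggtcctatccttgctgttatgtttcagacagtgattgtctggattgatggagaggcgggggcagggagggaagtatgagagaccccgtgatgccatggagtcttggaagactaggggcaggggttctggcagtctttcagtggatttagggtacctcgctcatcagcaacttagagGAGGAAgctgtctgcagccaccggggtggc

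The 4 lower genes next by p missed the threshold narrowly. Cd1d1 encodes the molecule that presents lipids to natural killer T cells. It ran from 8.59 to 9.36 in prenephritic arrays (median 9.12) and was at 8.34, 7.95, 7.98 and 8.05 in remission replicates 1 to 4, with no overlap (−0.92 ± 0.15, adjusted p = 0.061). Adora3, the adenosine A3 receptor gene, ran from 5.89 to 6.64 (median 6.19) and was at 5.45, 5.27, 4.81 and 5.61 in remission (−0.95 ± 0.17, adjusted p = 0.064). Sec16b, whose product organises the sites where vesicles leave the endoplasmic reticulum, ran from 4.80 to 5.36 (median 5.25) and was at 4.36, 4.22, 4.08 and 4.02 (−0.97 ± 0.15, adjusted p = 0.053).

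In these genes too, nephritic arrays were near the remission level, with means of 8.01 for Cd1d1, 5.27 for Adora3 and 4.41 for Sec16b. Apof, which encodes apolipoprotein F, had another pattern. It ran from 3.89 to 4.50 in prenephritic and from 3.89 to 4.58 in nephritic arrays and was at 3.39, 3.48, 3.11 and 3.44 in remission, where every array was below all others (−0.80 ± 0.13, adjusted p = 0.054). Its difference between remission and nephritic arrays was −0.92 (adjusted p = 0.00024). All group means of Apof, and the remission and nephritic means of Sec16b, lay below 4.99, the lower quartile of all values, where RMA compresses differences.

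Among higher genes, Mb21d2 had the smallest p. It ran from 9.54 to 9.82 in prenephritic arrays (median 9.74) and was at 10.07, 10.23, 10.28 and 10.21 in remission (0.50 ± 0.09, adjusted p = 0.064). All 4 remission arrays were also above the nephritic arrays, which ran from 9.56 to 9.94, and remission minus nephritic was 0.40 (adjusted p = 0.0055). Ube2e2, a gene for a ubiquitin-conjugating enzyme, ran from 9.70 to 9.97 and was at 10.12, 10.15, 10.20 and 10.32 (0.35 ± 0.06, adjusted p = 0.064), with nephritic arrays between 10.23 and 10.32.

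Saa3 encodes an acute-phase serum amyloid that macrophages make during inflammation. It ran from 6.03 to 7.87 in prenephritic arrays (median 7.34) and was at 9.18, 8.75, 8.33 and 8.78 in remission, a 3.11-fold higher mean (1.63 ± 0.36, adjusted p = 0.12). Nephritic arrays ran from 8.48 to 9.80, and remission did not differ from them past the threshold (adjusted p = 0.48). The adhesion receptor gene Adgrg6 likewise had no overlap between remission and prenephritic arrays (0.98 ± 0.21, adjusted p = 0.10). Hnmt, which encodes the enzyme that inactivates histamine by methylation, stood at 0.49 ± 0.11 (adjusted p = 0.13), with prenephritic replicate 6 inside the remission range.

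**Figure D2:**
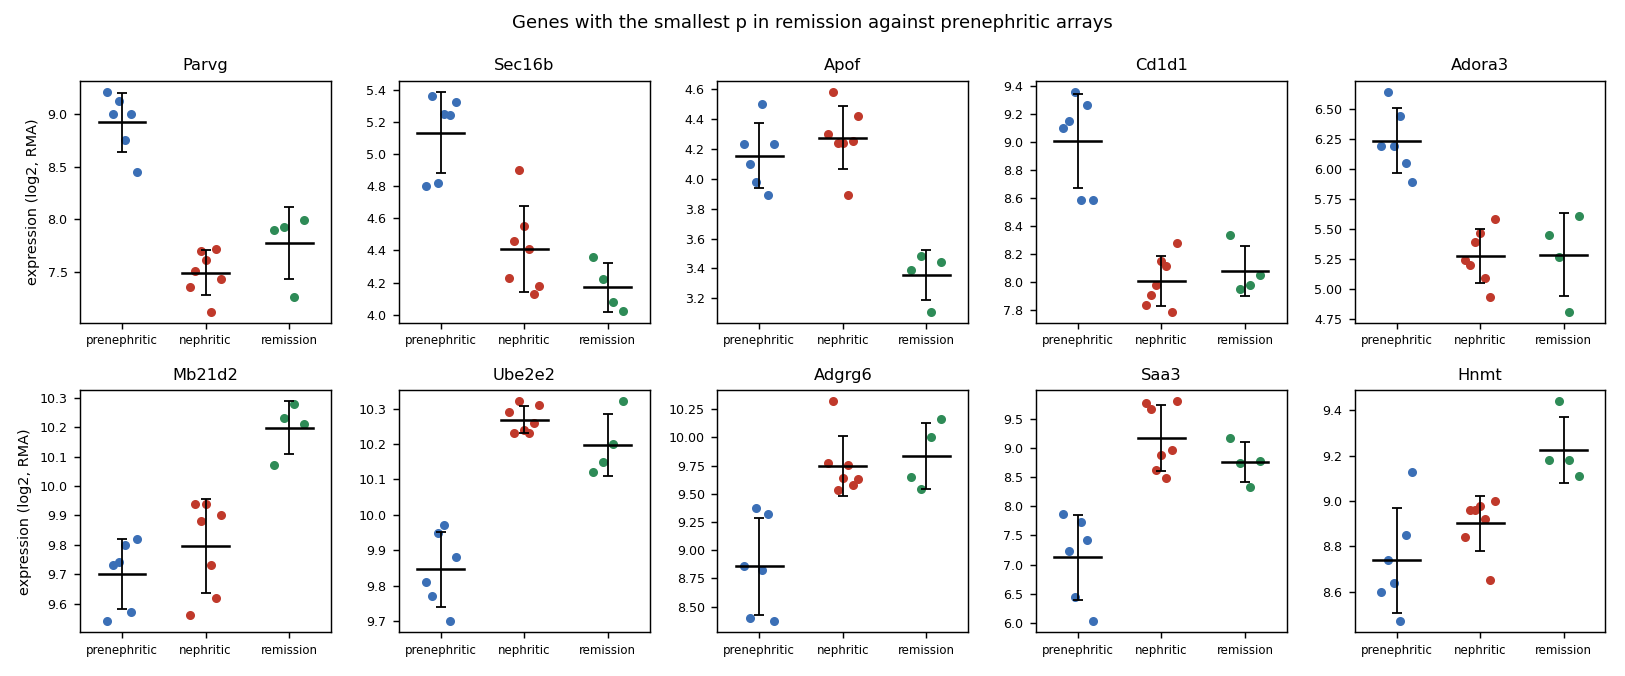
Log2 level of the 5 lower genes (top row) and 5 higher genes (bottom row) with the smallest p in each array, as points, with group mean and SD as lines. Parvg, Sec16b, Cd1d1 and Adora3 have remission arrays near the nephritic ones, Apof and Mb21d2 have remission arrays outside both other groups, and the vertical axes differ between panels.

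The level in remission of genes that mark nephritis was examined next, for 22 genes that had been chosen because they differed between nephritic and prenephritic arrays. Since the choice used the same prenephritic arrays, the values are set side by side and no likeness between the comparisons is calculated. None of the 22 passed in remission minus prenephritic arrays by limma, and 5 were higher and 7 lower at an unadjusted p below 0.05. Among all genes 6.38% were higher and 12.3% lower at that p.

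Cxcl13, the chemokine that attracts B cells, ran from 7.62 to 10.19 in prenephritic arrays (median 8.14) and was at 10.12, 8.73, 11.58 and 10.15 in remission. Nephritic arrays ran from 11.95 to 13.01, above every remission array. The remission difference was 1.63 ± 0.49 (95% interval 0.59 to 2.67, adjusted p = 0.17), and the nephritic one was 3.94. Prenephritic replicates 1 and 4 lay within the remission range, and remission replicates 1, 2 and 4 lay within the prenephritic range.

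Itgam, which encodes the CD11b chain of an integrin of myeloid cells, ran from 6.86 to 7.82 in prenephritic arrays (median 7.58) and was at 7.69, 7.69, 8.13 and 8.45 in remission, against 9.22 to 10.07 in nephritis. Its difference was 0.49 ± 0.20 (95% interval 0.07 to 0.91, adjusted p = 0.23). The secreted protease gene Htra4 (1.75, interval 0.71 to 2.79) and the endothelial lipase gene Lipg (1.24, interval 0.40 to 2.07) also had intervals above 0, and their nephritic differences were 3.83 and 3.77. In Htra4 the 4 remission arrays spread from 6.84 to 9.48.

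Acp5, the gene of an acid phosphatase, was the fifth with an interval above 0 (0.43, interval 0.03 to 0.83). The other 8 genes that were high in nephritis had remission intervals that included 0. Of these, 2 had differences well above 0, namely Lcn2, the lipocalin gene (0.93, interval −0.04 to 1.90), and Clec4d, a lectin receptor gene (0.62, interval −0.08 to 1.31). Il10, the gene of an anti-inflammatory cytokine, ran from 4.66 to 8.12 in prenephritic arrays (median 6.30) and was at 5.64, 5.71, 5.59 and 6.69 in remission, with an interval of −1.66 to 0.86. Mmp14, a membrane-bound matrix protease gene, had a difference of 0.04 (interval −0.40 to 0.49) beside 2.10 in nephritis. Ikbke, a kinase gene of interferon induction, had −0.21 beside 2.89, the interleukin-1 antagonist gene Il1rn 0.25 beside 2.75, and Pdcd1lg2, which encodes the inhibitory ligand PD-L2, −0.47 beside 2.67. Gpr171, a receptor gene, stood at −0.16 beside 2.88. An interval that includes 0 does not show that a level was the same.

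The 9 genes that were low in nephritis had remission minus prenephritic differences from −2.38 to −0.15. Cd163, the receptor that clears haemoglobin bound to haptoglobin, ran from 10.62 to 11.48 in prenephritic arrays (median 10.97) and was at 9.86, 9.36, 9.76 and 9.26 in remission, with no overlap. Its difference was −1.48 (interval −2.44 to −0.53, adjusted p = 0.17), or −1.02 with the tubule score as a covariate. The collagenase gene Mmp13 was at 11.87, 11.76, 11.14 and 11.58 in remission, just below its prenephritic range of 11.88 to 12.43 in replicate 1, and its nephritic arrays ran from 8.82 to 10.42.

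The lectin gene Cd209a was the most variable of these. It ran from 5.88 to 9.50 in prenephritic arrays and was at 6.70, 7.73, 4.86 and 2.89 in remission (−2.38 ± 0.76, interval −3.98 to −0.79). For Cd209a, Cd163 and the decoy receptor gene Il1r2, remission and nephritic arrays did not differ past the threshold (adjusted p = 0.24, 0.16 and 0.27). The same held for the macrophage elastase gene Mmp12 (adjusted p = 0.053), whose remission minus prenephritic difference was −1.05 (interval −1.79 to −0.30) beside −2.09 in nephritis. For Mmp13, Hs3st1, which modifies heparan sulfate, Siglech, a sialic acid receptor gene, Fndc4 and Nckap5 they did. The remission minus prenephritic differences of the last 4 were −0.76, −0.82, −0.95 and −0.15 beside nephritic ones of −3.34, −2.73, −2.08 and −2.24.

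**Figure D3:**
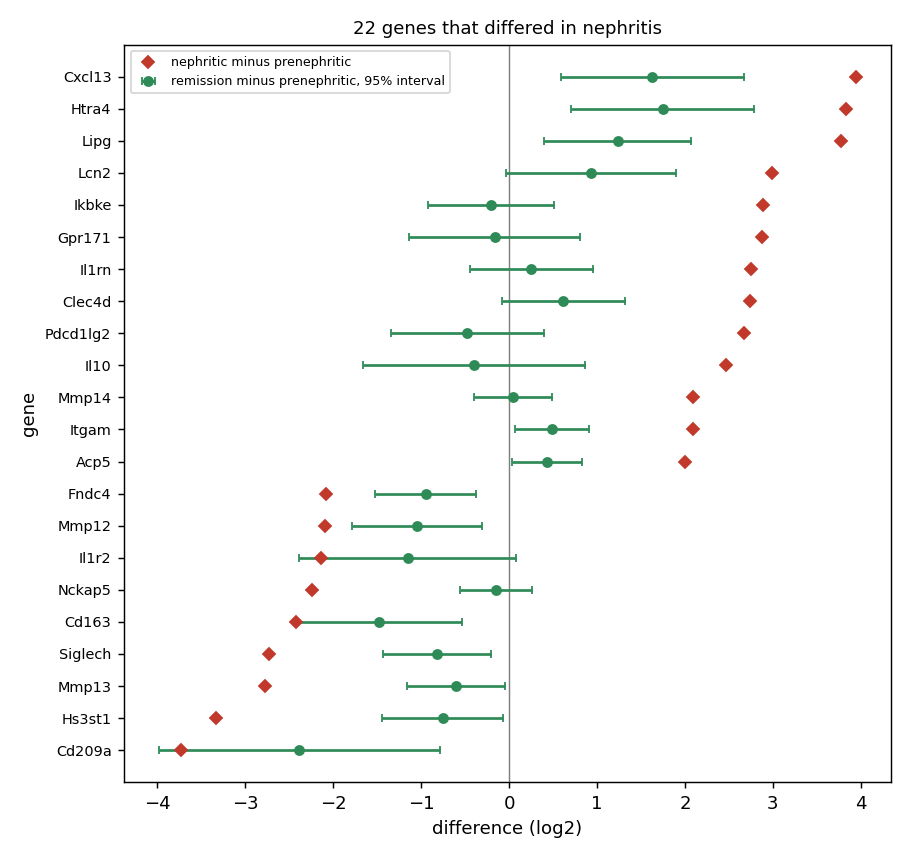
Log2 difference from prenephritic arrays of 22 genes chosen for their nephritic difference, with remission as green points with 95% intervals and nephritis as red diamonds. Cxcl13, Htra4, Lipg, Itgam and Acp5 have remission intervals above 0, and the diamonds of Il1r2, Cd163 and Cd209a lie within the remission intervals.

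The treatment was directed at T cell costimulation, and genes on the macrophage side of that contact were read next. Of 17 measured costimulatory and coinhibitory ligand genes 0 passed by limma, and their median of −0.05 equalled that of all genes. At an unadjusted p below 0.05, 1 was higher and 1 lower, beside 6.38% and 12.3% of all genes. Cd80, a ligand of CD28 that CTLA4Ig binds, ran from 5.62 to 6.91 in prenephritic arrays (median 6.59) and was at 5.21, 5.69, 5.49 and 5.70 in remission (−0.90 ± 0.28, adjusted p = 0.18). Cd86, the other ligand of CD28, differed by −0.05 (interval −0.34 to 0.23), and Cd40, the receptor of CD154, by 0.18 (interval −0.23 to 0.59). Cd274, which encodes PD-L1, stood at −0.35 (adjusted p = 0.41) and Tnfsf13b, the gene of the B cell survival factor BAFF, at 0.34 (adjusted p = 0.25).

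Cell cycle genes leaned below 0 in remission minus prenephritic arrays, and no member passed. All 24 measured members had a difference below 0, 17 of them at an unadjusted p below 0.05, and the smallest adjusted p was 0.13. Their median was −0.47 against −0.05 for all genes, of which 63.4% were below 0 and 12.3% lower at that p. The mean level of the list was 7.68, 8.01, 7.95 and 7.78 in remission replicates 1 to 4. Prenephritic arrays ran from 7.92 to 8.85 and nephritic ones from 8.69 to 9.10, so remission arrays lay below every nephritic array and overlapped the lowest prenephritic one.

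In 4 of the 24 members all remission arrays lay below all prenephritic arrays, as in 1.93% of all genes, among them Aurka, Cdc6 and Plk1. Aurka encodes a kinase of the mitotic spindle poles. It ran from 7.50 to 8.24 in prenephritic arrays (median 7.77) and was at 7.06, 7.39, 7.46 and 7.21 in remission (−0.53 ± 0.13, adjusted p = 0.14). Cdc6, which loads the replicative helicase onto origins, stood at −0.79 ± 0.21 (adjusted p = 0.15), and Plk1, a kinase that drives entry into mitosis, at −0.66 ± 0.18 (adjusted p = 0.16).

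Mcm5, a subunit of the replicative helicase, had the smallest p of the list (−0.57 ± 0.13, adjusted p = 0.13). With the tubule score as a covariate the median of the list was −0.53 and again 17 members were below an unadjusted p of 0.05. In that fit 732 of all 15780 genes were lower at that p. With arrays weighted by their spread around the fit 7 members passed, in a fit that called 69 higher and 289 lower genes over all 15780. These weights were estimated from the same values and were lowest for prenephritic replicate 6 (0.62) and remission replicate 4 (0.684). Without covariate or weights, 1 of 18 measured DNA damage and p53 target genes was higher and 1 lower at that p. Over all genes these shares were 6.38% and 12.3%. The median of the 18 was −0.06.

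The promoter windows of Aurka, Plk1 and Cdc6 are shown because these members had no overlap between the groups. Many promoters of cell cycle genes carry CCAAT boxes, bound by the factor NF-Y, and E2F sites. Both strands of the 250 bases before each RefSeq start (GRCm38.p6) were searched. Each cell cycle gene was counted once, by the first window listed for it. The share over all windows counts every window, and a gene can have several. CCAAT stood in 16 of the 21 cell cycle genes that had a window (76.2%) and in 33.8% of all 32851 windows, and TTTGAA, the core of the cell cycle homology region, in 8 (38.1%) and 16%. The E2F forms TTTCCCGC and TTTGGCGC stood in 1 and 2 of the 21 and in 0.895% and 0.417% of all windows. Capitals mark CCAAT in Aurka (chr2:172370571-172370820, minus strand, at 51 to 47 and 19 to 15 bases before the start) and Plk1 (chr7:122159185-122159434, plus strand, at 14 to 10). In Cdc6 (chr11:98907901-98908150, plus strand) they mark TTTCCCGC read on the other strand at 138 to 131. A match describes the letters and shows no binding.
Aurka: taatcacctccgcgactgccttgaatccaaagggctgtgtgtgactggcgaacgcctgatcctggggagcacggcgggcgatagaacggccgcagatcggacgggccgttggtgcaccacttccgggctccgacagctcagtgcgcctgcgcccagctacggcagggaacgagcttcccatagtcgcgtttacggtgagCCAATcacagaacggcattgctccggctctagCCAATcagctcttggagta
Plk1: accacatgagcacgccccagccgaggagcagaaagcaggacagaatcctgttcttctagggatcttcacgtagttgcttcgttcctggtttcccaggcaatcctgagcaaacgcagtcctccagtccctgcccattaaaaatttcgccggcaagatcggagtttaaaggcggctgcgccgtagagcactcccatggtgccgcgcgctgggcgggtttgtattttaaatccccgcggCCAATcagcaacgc
Cdc6: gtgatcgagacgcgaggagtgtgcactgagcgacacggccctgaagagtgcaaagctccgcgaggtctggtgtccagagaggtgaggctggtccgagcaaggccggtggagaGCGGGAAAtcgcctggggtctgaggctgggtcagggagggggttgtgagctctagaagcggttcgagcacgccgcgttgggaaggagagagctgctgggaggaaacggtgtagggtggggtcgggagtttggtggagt

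Antigen presentation was split by the kind of molecule. None of 12 class II genes passed in limma, with 3 lower at an unadjusted p below 0.05 and a median of −0.09. The largest differences were those of H2-Oa, whose product restrains peptide loading in B cells and dendritic cells (−1.37 ± 0.39, adjusted p = 0.16), and H2-DMb2, a chain of the loading factor (−0.75 ± 0.20, adjusted p = 0.15). H2-Oa ran from 7.55 to 9.53 in prenephritic arrays (median 8.92) and was at 8.05, 7.79, 6.28 and 7.43 in remission, so the groups overlapped. All 12 class I genes were below 0, 5 of them at that p, with a median of −0.20. The shares over all genes were 63.4% below 0 and 12.3% lower at that p. Tap1, which carries peptides into the endoplasmic reticulum, stood at −0.58 ± 0.17 (adjusted p = 0.17).

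Inflammatory lists also had medians below that of all genes. Interferon-stimulated genes had 9 of 24 lower and 0 higher at an unadjusted p below 0.05, with a median of −0.30. With the tubule score as a covariate 1 was lower (median −0.205). In that fit 732 of all 15780 genes were lower at that p. Without the covariate 12.3% of all genes were lower and 6.38% higher at that p. Gbp2, an interferon-induced GTPase gene, ran from 9.70 to 10.81 in prenephritic arrays (median 10.49) and was at 9.92, 9.61, 9.84 and 9.90 in remission (−0.61 ± 0.22, adjusted p = 0.22). Of 20 proinflammatory cytokine genes 1 was higher and 2 lower at that p. Il18 had the smallest p of these, with 11.02 to 11.43 in prenephritic arrays (median 11.36) against 10.83, 10.47, 10.86 and 10.90 (−0.51 ± 0.12, adjusted p = 0.13).

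Chemokine ligand and receptor lists both had medians below 0, and no member of either passed. Of 25 ligand genes 14 were below 0, and 2 were higher and 4 lower at an unadjusted p below 0.05, with a median of −0.10. Over all genes 63.4% were below 0, 6.38% were higher and 12.3% lower at that p, and the median was −0.05. The ligand counts lay near these shares. Ccl8, which attracts monocytes and T cells, stood at 1.31 ± 0.37 (adjusted p = 0.16) and Ccl22, which attracts regulatory T cells, at −1.88 ± 0.60 (adjusted p = 0.19). Of 19 receptor and homing genes 17 were below 0 and 4 at that p, with a median of −0.29. Ccr1, a receptor for several inflammatory chemokines, had a narrow prenephritic range of 8.36 to 8.76 (median 8.63) and was at 7.27, 7.99, 7.22 and 7.45 in remission (−1.13 ± 0.32, adjusted p = 0.17), or −0.82 with the tubule score as a covariate. Itgb7, an integrin chain of gut-homing cells, stood at −1.26 ± 0.32 (adjusted p = 0.14).

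Alternative activation genes had 18 of 22 below 0 and 7 lower at an unadjusted p below 0.05, with a median of −0.37. With the tubule score as a covariate the median was −0.25 and 4 were lower at that p. In that fit 732 of all 15780 genes were lower. Cd163 and Cd209a, described above, and Irf4 (−0.45 ± 0.17, adjusted p = 0.22) are members. Of 29 macrophage transcription factor genes 25 were below 0 and 6 at that p, with a median of −0.23. For comparison, without the covariate 63.4% of all genes were below 0 and 12.3% were lower at that p. Irf5, a factor of inflammatory activation linked to lupus, ran from 10.88 to 11.42 in prenephritic arrays (median 11.35) and was at 10.82, 10.61, 10.92 and 11.08 in remission (−0.43 ± 0.12, adjusted p = 0.16). Irf8, which sets myeloid identity, stood at −0.50 ± 0.15 (adjusted p = 0.17).

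Dendritic cell markers had a lower median than these lists, and none of them passed (smallest adjusted p = 0.17 in limma). Of 18 measured, 15 were below 0 and 7 at an unadjusted p below 0.05, beside 63.4% and 12.3% of all genes. The median was −0.50 (−0.48 with the tubule score as a covariate). Their mean level ran from 7.52 to 8.81 in prenephritic and from 7.34 to 7.93 in remission arrays, and 2 of the 18 were below the lower quartile of values in both groups. Flt3, the growth factor receptor of dendritic cells, stood at −1.78 ± 0.58 (adjusted p = 0.19), with a prenephritic range of 4.74 to 8.28. Cd209a, Irf8 and Siglech, described above, are in this list too. The part of dendritic cells in the antigen presentation, chemokine and alternative activation values was not tested.

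NK cell markers had all 12 members below 0 and 5 at that p, beside 63.4% and 12.3% of all genes, with a median of −0.47. List means ran from 4.80 to 5.76 in prenephritic and from 4.60 to 4.96 in remission arrays. Of the 12, 6 were below the lower quartile in both groups. Klrb1c, the NK1.1 gene, stood at −0.51 ± 0.12 (adjusted p = 0.14), and Tbx21, the T-bet gene, at −1.12 ± 0.36 (adjusted p = 0.19).

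Lists of resident macrophage function had medians near the median of all genes. Resident identity genes had 12 of 24 above and 12 below 0, with a median of −0.01. At an unadjusted p below 0.05, 3 were higher and 3 lower, beside 6.38% and 12.3% of all genes. When the tubule score entered the model, 17 were above 0, and the median was 0.155 against −0.01 for all genes. In that fit 5 members were higher and 2 lower at that p, beside 330 and 732 of all 15780 genes. Within the list, Timd4, a phosphatidylserine receptor gene of resident macrophages, ran from 6.51 to 7.91 in prenephritic arrays (median 6.94) and was at 6.30, 5.68, 5.57 and 5.78 in remission, with no overlap (−1.26 ± 0.33, adjusted p = 0.15). Fcrls, an Fc receptor-like gene of tissue macrophages, ran from 9.05 to 10.38 and was at 10.01, 10.02, 11.16 and 11.15 (0.94 ± 0.29, adjusted p = 0.18).

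Fc receptor genes, through which immune complexes act, had 0 of 9 members at an unadjusted p below 0.05 in limma. Over all genes 6.38% were higher and 12.3% lower at that p. Fcgr2b, the inhibitory receptor gene, stood at −0.22 (interval −0.54 to 0.11). Medians were 0.01 for 25 lysosome genes, 0.02 for 21 lipid handling genes, −0.01 for 16 heme and iron genes and 0.02 for 25 proteasome genes, with at most 3 members in either direction at an unadjusted p below 0.05. Apoe, the apolipoprotein E gene, stood at 0.50 (adjusted p = 0.23) and Plin2, which coats lipid droplets, at −0.28 (adjusted p = 0.22). Plin2 is an example of a gene where nephritic arrays (12.26 to 12.63) lay above both prenephritic (11.49 to 11.78) and remission arrays (11.15 to 11.69).

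Lists of monocyte, efferocytosis, pattern recognition, complement, cholesterol synthesis, oxidative stress, matrix remodelling, endoplasmic reticulum stress and glycolysis genes had medians from −0.12 to 0.17. At most 4 members of each were at that p in either direction, beside 6.38% of all genes higher and 12.3% lower. Among them Thbs1, a matricellular gene of apoptotic cell uptake, stood at 0.47 ± 0.14 (adjusted p = 0.17) and Mmp9, a gelatinase gene, at −0.93 ± 0.32 (adjusted p = 0.20).

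Median differences were small, from −0.08 to 0.04, in lists of other blood and stromal cells. These were T cell, B cell and plasma cell, neutrophil, mast cell and eosinophil, podocyte, fibroblast and mesangial, and erythrocyte and platelet markers. At most 2 members of each were at that p in either direction, beside 6.38% of all genes higher and 12.3% lower. Below the lower quartile in both groups were 6 of 16 T cell and 6 of 17 B cell and plasma cell genes. The same held for 5 of 13 neutrophil, 7 of 13 mast cell and eosinophil and 2 of 9 podocyte genes. It also held for 2 of 17 fibroblast and mesangial and 3 of 10 erythrocyte and platelet genes. RMA compresses differences at such levels. Jchain, the joining chain gene of plasma cells, ran from 7.53 to 11.10 in prenephritic arrays (median 8.11) and was at 11.08, 10.53, 10.17 and 10.63 in remission (1.81 ± 0.60, adjusted p = 0.20). Remission arrays were alike, and prenephritic replicates 2 and 5 lay with them while the other 4 were lower. The platelet chemokine gene Ppbp had no overlap, with 5.99 to 7.09 in prenephritic arrays and 5.03, 5.80, 5.10 and 5.65 in remission (−1.13 ± 0.25, adjusted p = 0.12).

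**Figure D4:**
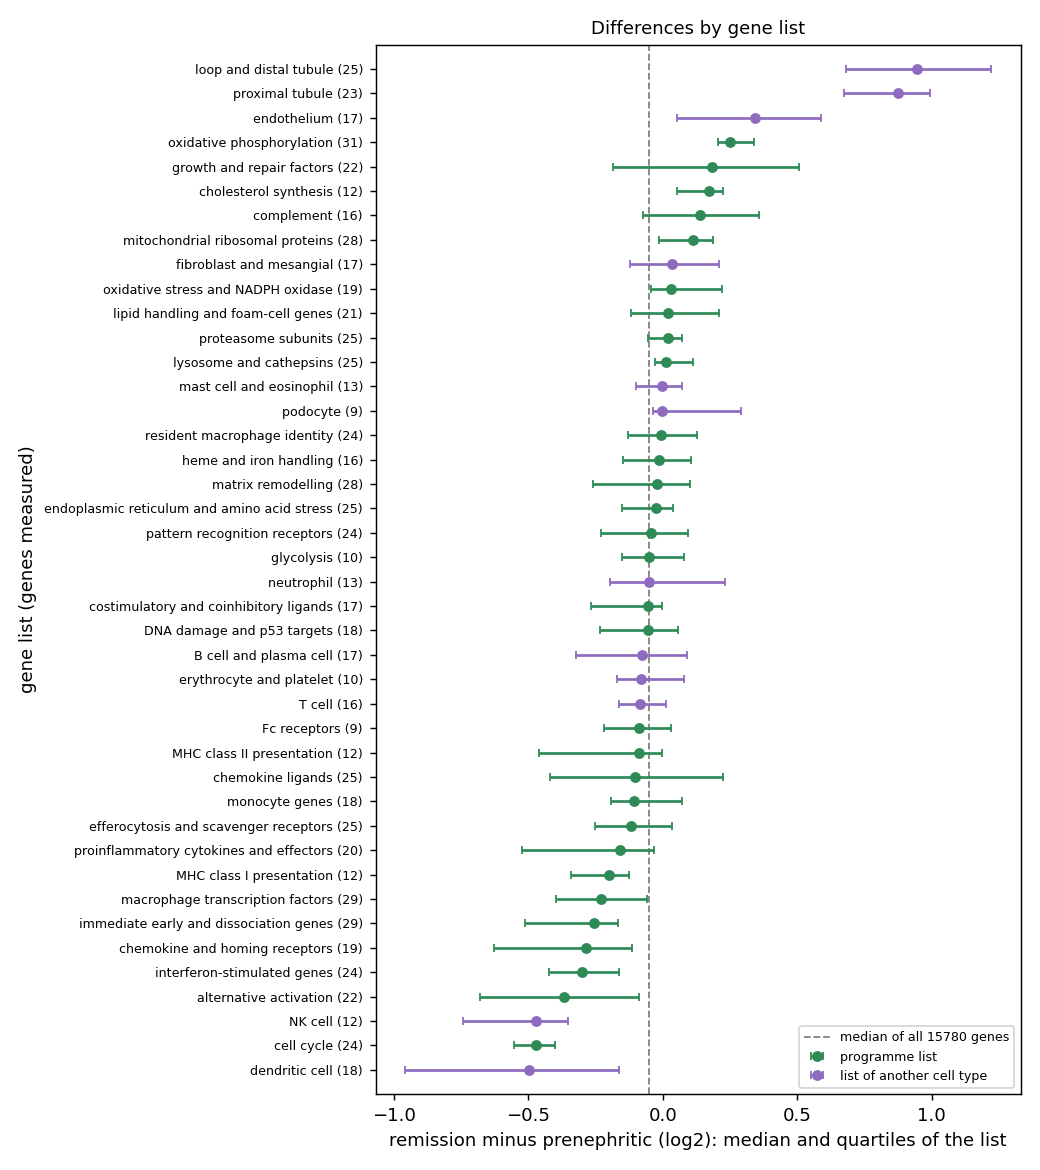
Median (point) and quartiles (bars) of the remission minus prenephritic log2 difference over the measured genes of each list, with the number of genes in brackets and the median of all 15780 genes as a dashed line. Tubule lists lie at 0.95 and 0.87, oxidative phosphorylation at 0.25, and cell cycle, NK cell and dendritic cell lists between −0.50 and −0.47.

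The highest medians were those of kidney tubule markers. Of 25 loop and distal tubule genes 24 were above 0 and 11 at an unadjusted p below 0.05, with a median of 0.95. The counts were 22 and 5 of 23 proximal tubule genes, with a median of 0.87. Among all genes 36.6% were above 0 and 6.38% were higher at that p. The water channel genes Aqp1 of the proximal tubule (1.41 ± 0.58) and Aqp2 of the collecting duct (0.67 ± 0.25) had adjusted p of 0.23 and 0.22. Both Aqp2 and Slc4a1, the anion exchanger gene of collecting duct intercalated cells and red cells, had no overlap between the groups. They were 2 of the 48 genes, and 0.393% of all genes had every remission array above every prenephritic one. Slc4a1 ran from 6.10 to 8.13 in prenephritic arrays (median 7.31) and was at 9.08, 9.34, 8.22 and 8.17 in remission (1.45 ± 0.51, adjusted p = 0.21). Aqp2 ran from 6.15 to 6.78 (median 6.46) and was at 7.44, 7.40, 6.98 and 6.82 in remission.

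All 31 oxidative phosphorylation genes were above 0, and 10 were higher at that p, beside 36.6% and 6.38% of all genes, with a median of 0.25. With the tubule score as a covariate the median was 0.07 and 0 of 31 were at that p in either direction (28 above 0). In that fit 330 of all 15780 genes were higher and 732 lower at that p. The tubule score was itself higher on average in remission arrays, so the covariate can also take up a difference between the groups. What part tubule RNA has in these values was not tested. Sdhb, a subunit of succinate dehydrogenase, ran from 11.46 to 12.29 in prenephritic arrays (median 11.68). It was at 12.25, 12.34, 12.21 and 11.82 in remission. Endothelial markers had 13 of 17 above 0 and 4 at that p (median 0.34), or 0 and a median of 0.05 with the covariate, with the capillary gene Emcn at 1.05 ± 0.40 (adjusted p = 0.22).

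Growth and repair factor genes had 6 of 22 higher and 0 lower at that p, with a median of 0.18, and 4 with the tubule score as a covariate (median 0.11). Vegfb, a gene of the vascular growth factor family, ran from 8.23 to 8.93 in prenephritic arrays (median 8.56) and was at 8.79, 9.16, 8.91 and 8.76 in remission (0.35 ± 0.11, adjusted p = 0.19). Vegfa, which podocytes and tubule cells make in quantity, stood at 0.65 ± 0.27 (adjusted p = 0.24).

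Immediate early and dissociation genes, which are induced quickly when tissue is handled, were all below 0 in remission (29 of 29, beside 63.4% of all genes). At an unadjusted p below 0.05 in limma there were 0, while 12.3% of all genes were lower. Without prenephritic replicate 5 and nephritic replicate 6 there were 13 at that p, with a median of −0.372. Of all 15780 genes 1814 were lower at that p in that fit. With the replicate number as a block there were 6, and 2637 of all 15780 genes were lower. In the mean of this same list, prenephritic replicate 5 was the lowest prenephritic array (10.06) and nephritic replicate 6 the highest of all arrays (11.43). Leaving them out therefore favours a lower median and lower p in this list and is no separate support. The median over all arrays was −0.26, and the list mean ran from 10.06 to 11.17 in prenephritic and from 9.92 to 10.57 in remission arrays. Fosb, a subunit of the AP-1 factor, ran from 8.60 to 10.71 in prenephritic arrays and was at 9.59, 7.75, 8.42 and 9.09 in remission, so its groups overlapped widely.

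**Figure D5:**
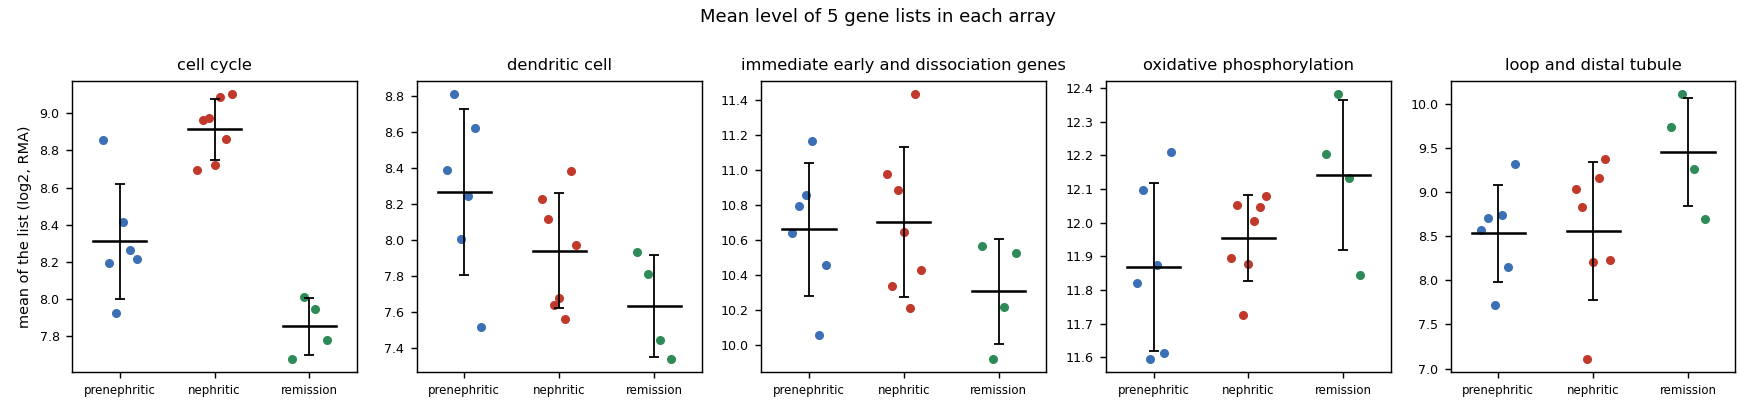
Mean log2 level of the measured genes of 5 lists in each array, as points, with group mean and SD as lines. Cell cycle means of remission arrays, 7.68 to 8.01, lie below all nephritic arrays and overlap the lowest prenephritic array, 7.92. In the other lists remission and prenephritic arrays overlap as well, and the vertical axes differ between panels.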

How the data were processed

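Expression was measured in F4/80hi kidney cells of NZB/W mice on Affymetrix arrays, 1 array per sample. The authors deposited log2 values made by RMA (background correction, quantile normalization and summarised probe sets), as the submitters' processing notes state without a version. Neither the probe definition nor a filter is given in the sources used here. RMA gives all arrays a common distribution and so hides any difference in total RNA per cell. Groups and replicate numbers came from the titles.

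Of 16539 probe sets, 64 controls and 695 without a gene symbol were left out, which left 15780 genes and no filter on level. The 3 group means were estimated in a single linear model of all 17 arrays with limma 3.58.1 in R 4.3.3 (14 residual degrees of freedom). The contrast remission minus prenephritic was tested two-sided with Benjamini-Hochberg adjustment over all genes, at a threshold of 0.05. The fit was tested on simulated data. No array-level depth exists, and the number of arrays limits the precision.

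The gene lists, the named genes and the comparison itself were chosen with earlier results of these data known. Named genes were the 15 largest differences per direction among called genes or, with fewer than 5 called, the 5 with the smallest p, for each list described at most 4 members by smallest p, and sets of markers and nephritis genes. Lists are described by counts and medians without a set test. The alternatives were other fits, filters, scalings, variance priors and weights, the replicate number as a block, the tubule score as a covariate, and each array left out in turn. Promoter windows came from RefSeq (GRCm38.p6).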

Additional observations from a re-analysis of the deposited data

Results flagged for a closer look

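Of 162 gene and group pairs named in the text, 7 had 1 array far from the rest of its group by Dixon's criterion, which chance exceeds in about 1 of 20 groups. In remission, replicate 3 was low for Parvg (7.26, others 7.90 to 7.99) and for Irf4 (6.83, others 7.38 to 7.46). Remission replicate 4 was high for Mcm5 (8.79, others 8.28 to 8.31) and for Il10 (6.69, others 5.59 to 5.71). Prenephritic replicate 6 was low for Irf5 (10.88, others 11.29 to 11.42), for Mmp14 (6.29, others 7.02 to 7.16) and for Fndc4 (7.74, others 8.31 to 8.63).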

How the results depend on the processing

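Against 0 higher and 1 lower gene, the counts were 0 and 0 when only the 10 arrays compared were fitted, when the tubule score was a covariate, and without prenephritic replicate 5 and nephritic replicate 6, which had stood apart in earlier results. They were 2 higher and 3 lower with quantile normalization repeated, 0 and 3 with array medians subtracted or with a trended robust prior, and 0 and 1 without dim genes. Array weights gave 69 higher and 289 lower, of which 18 and 18 differed at least 2-fold. With the replicate number as a block they were 234 and 244, of which 141 and 15 differed at least 2-fold. Deviations of same-numbered remission and prenephritic arrays from their group means had correlations of −0.07, 0.39, 0.13 and −0.01. Of the 4 remission arrays, 1 correlated best with its own number. So few values cannot settle whether same-numbered arrays share more than a number, and the pairing is not used. The cause of these shifts was not tested. Leaving out each array in turn gave 0 to 28 higher and 0 to 171 lower genes, and 0 to 3 and 0 to 26 at least 2-fold. The highest counts came without prenephritic replicate 6, and without remission replicate 4 they were 1 and 16 (1 and 3 at least 2-fold).

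No called value changed sign. Parvg lost its call in 15 settings, and other named genes gained one in 85 gene and setting pairs. Of the list medians, 10 values moved by more than the spread between arrays, 6 of them with the tubule score as a covariate. Differences smaller than about 0.243 on the log2 scale are beyond the precision of these arrays for a gene of median standard error. This limit is without adjustment for the number of genes, and the adjusted test needed larger differences.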
